A study of Mus musculus with 2 samples.

Results

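The genes described here are 31 regulators of chromatin and transcription whose disruption is associated with autism, taken as a list of symbols that was set without using the measured values of these libraries in its rule. All 31 symbols matched a row of the feature list, which holds 33696 genes, and each had at least 1 unique molecular identifier (UMI, a counted RNA molecule) in both libraries. The study compared the brains of mice that lack Shank3, a postsynaptic scaffold gene linked to autism, after 2 weeks of vehicle or of fluconazole, an azole antifungal drug, in the drinking water. Both groups carry the Shank3-/- genotype, so every value below comes from knockout tissue and no wild type was analysed here. Each treatment is 1 library: the labels give the tissue as brain, the design text names the prefrontal cortex, and the number, age and sex of the mice are not given in the sources used here. Extraction is described for nuclei, while the design text also speaks of single cells, and the libraries were made with a 10x Genomics kit that reads the end of the transcript.

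Chromatin regulators set which parts of the genome a cell can read. Remodellers slide or evict nucleosomes, histone methyltransferases and demethylases write and erase marks on the histone tails, and cofactors bring these enzymes to the sites that sequence-specific transcription factors choose. Many of these proteins are present in every cell, yet heterozygous loss in people mostly shows in the brain, where they act during the birth, migration and maturation of neurons.

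After removal of doublets and of barcodes with under 500 genes or over 5% mitochondrial UMIs, 12892 of 14924 barcodes were kept in the vehicle library and 10610 of 12637 in the fluconazole library. The median was 4327 UMIs per kept barcode with vehicle and 5258 with fluconazole, and 31 barcodes occurred in both kept sets. Classes were rebuilt by clustering and named from marker genes, with the regulators and their partner genes left out of the genes used for clustering. A class name stands for a cluster that looks like that cell type by its markers ("astrocyte-like" and so on), and "like" is left off below. Of the classes, 18 neuron subclasses and other cell types had at least 50 barcodes in each library and are used for ranges. Striatal spiny neurons, which are not a cortical type, and neuroblasts, immature neurons, were among them. In the neuroblast class 26.8% of vehicle and 26.5% of fluconazole barcodes came from a cluster led by Top2a, Pbk and Ube2c, genes of dividing cells. Shank3 itself was counted at 72.5 counts per 1000000 UMIs of the class (CPM) in vehicle and 80.9 CPM in fluconazole glutamatergic neurons. The sources used here do not say which part of the gene is deleted, so these counts do not check the genotype. With 1 library per treatment there is no replicate spread and no p-value. Intervals in square brackets are exact 95% intervals that cover counting error only, and a difference in this tissue between fewer molecules per cell and another mix of cells inside a class cannot be told apart.

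The regulators were divided at 8-fold between highest and lowest class into a group with sharp cell-class patterns and a group with narrower ranges. For 12 of the 31 the highest class was at least 8 times the lowest (Tcf7l2, Myt1l, Bcl11a, Asxl3, Tbr1, Setbp1, Satb1, Kdm6b, Tcf4, Foxp1, Rai1 and Kdm5b), with levels averaged over both libraries. The share of all genes with such a range was not counted, so 12 of 31 is not set apart from genes in general. The other 19 ranged from 2.15 to 5.54 times. Most of these 12 are sequence-specific transcription factors, and the histone enzymes and remodellers, apart from Kdm6b and Kdm5b, were in the second group. The class with the highest level was the same in both libraries for 26 of the 31. Neuroblasts were highest for 11 members, fibroblasts for 7 and microglia for 5, while border macrophages were lowest for 10 and oligodendrocytes for 7. How often each class is highest or lowest over all genes was not counted, so these counts may not be particular to the regulators. The fibroblast class also held 3350 and 3725 CPM of astrocyte markers and 2259 and 2397 CPM of mural markers, beside 3549 and 3202 CPM of its own. Glutamatergic markers in fibroblasts stood at 14.5% and 6.67% of their level in the whole library, a measure of free RNA, but spiny neuron markers at 126% and 129.5%. With levels corrected for free RNA, neuroblasts were highest for 9 members, fibroblasts for 9, microglia for 5 and oligodendrocyte precursors for 3. Corrected levels are CPM over the UMIs left after the subtraction, so they can lie above the uncorrected ones. In fibroblasts that correction rests on both of these marker lists, with spiny neuron markers above their library level. The part of foreign RNA in the fibroblast levels was not tested further. With fibroblasts left out 12 members still had the 8-fold range, and neuroblasts were highest for 12, microglia for 5 and astrocytes for 3. Once levels were corrected for free RNA, some of the other 19 passed 8-fold. Tbl1xr1 then ran from 298.7 CPM in fibroblasts to 6.23 CPM in mural cells. Tcf20 ran from 347.7 CPM in neuroblasts to 22.1 CPM in mural cells, and Med13l from 241.5 CPM in microglia to 15.2 CPM in fibroblasts. In mural cells, too, the marker lists behind the correction differed. Glutamatergic markers stood there at 6.51% and 3.95% of their library level and spiny neuron markers at 53.1% and 50.2%. Whether the division depends on free RNA was not tested further. After thinning each barcode to 1500 UMIs, 23 of the 31 members kept their highest class, with neuroblasts at 11, fibroblasts at 5 and microglia at 3.

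**Figure D1:**
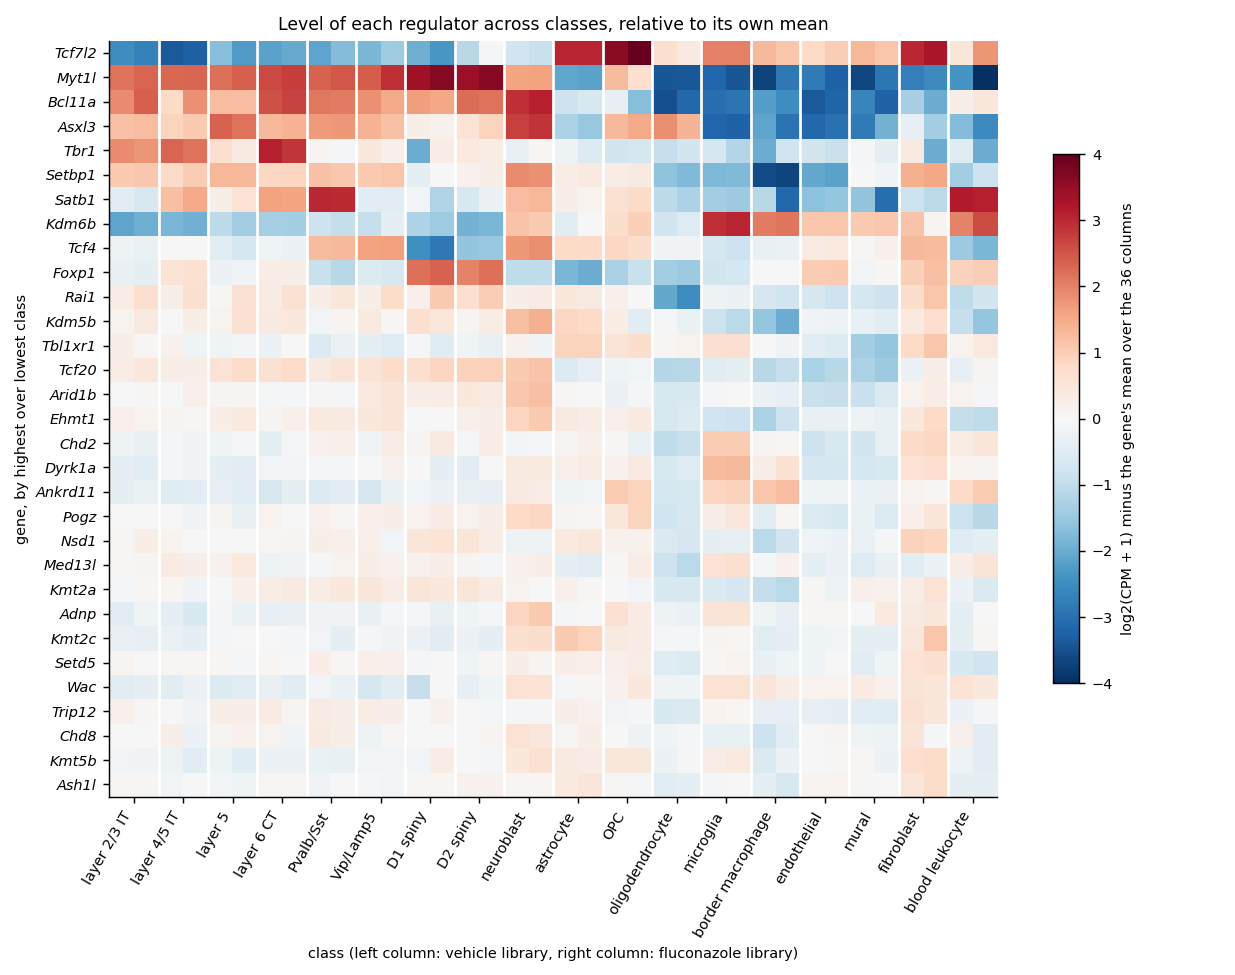
Level of each of the 31 regulators (rows, ordered by the ratio of highest to lowest class) in 18 classes, as log2(CPM + 1) minus the gene's mean; each class has a vehicle column on the left and a fluconazole column on the right. The upper 12 rows carry most of the colour, and both columns of a class mostly look alike.

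The starts of the genes with the widest and the flattest patterns are shown to set the 2 kinds of pattern side by side at the level of DNA, with a count of CG dinucleotides, the sites of DNA methylation. RefSeq's promoter table (build GRCm38.p6) matched 23 of the 31 members by symbol. Each window is the 250 bases before the first listed start, 5′ to 3′ on the gene's strand, with every CG in capitals. Tcf7l2 (chr19:55741560-55741809, + strand) and Myt1l (chr12:29528134-29528383, + strand) had the widest range among matched members. Chd8 (chr14:52257761-52258010, - strand) and Kmt5b (chr19:3767171-3767420, + strand) had the flattest.
Tcf7l2: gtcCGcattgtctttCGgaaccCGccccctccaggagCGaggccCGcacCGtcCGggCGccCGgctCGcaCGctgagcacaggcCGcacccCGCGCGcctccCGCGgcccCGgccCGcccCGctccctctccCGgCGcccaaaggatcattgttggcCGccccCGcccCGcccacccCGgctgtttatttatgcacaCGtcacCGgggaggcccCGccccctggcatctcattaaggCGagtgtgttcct
Myt1l: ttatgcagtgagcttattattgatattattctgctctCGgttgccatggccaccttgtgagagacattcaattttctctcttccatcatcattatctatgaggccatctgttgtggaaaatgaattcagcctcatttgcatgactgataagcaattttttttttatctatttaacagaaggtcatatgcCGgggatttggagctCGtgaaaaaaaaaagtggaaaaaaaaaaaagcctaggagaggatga
Chd8: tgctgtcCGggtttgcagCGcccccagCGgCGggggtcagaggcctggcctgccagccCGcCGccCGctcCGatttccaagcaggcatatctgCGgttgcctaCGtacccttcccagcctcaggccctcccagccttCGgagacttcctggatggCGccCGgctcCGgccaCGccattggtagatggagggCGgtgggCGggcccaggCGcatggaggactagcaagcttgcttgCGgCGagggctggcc
Kmt5b: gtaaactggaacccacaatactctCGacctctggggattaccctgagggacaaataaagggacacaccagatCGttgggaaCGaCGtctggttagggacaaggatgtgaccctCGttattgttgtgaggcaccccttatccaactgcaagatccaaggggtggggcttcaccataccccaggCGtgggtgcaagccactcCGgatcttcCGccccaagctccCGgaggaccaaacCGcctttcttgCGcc
Tcf7l2 had 30 CG dinucleotides in this window and Myt1l 3, against 20 for Chd8 and 11 for Kmt5b, so the number of CG did not sort the wide from the flat patterns among these 4 genes. Over the 23 matched members the median was 16.0 CG and 68.8% G or C, against 6.0 CG and 52.0% for the first promoters of all 27025 genes in the table. At least 10 CG were found for 18 of the 23 members and for 38.2% of all genes. Setd5 had 0 CG and Med13l, a subunit of the Mediator kinase module, had 51, the lowest and highest of the matched members. The Setd5 window (chr6:113104685-113104934) lies inside the gene as GENCODE places it (chr6:113077365-113153435, + strand). Its count is thus not that of the bases before the start of the whole gene. Windows of some other members, such as Tcf20, also lie inside the gene.

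Among the transcription factors, Tcf7l2, an HMG-box factor of the Wnt pathway with a known part in oligodendrocyte differentiation, had the widest pattern. It was highest in oligodendrocyte precursors, at 536 CPM [483, 592] with vehicle and 807 CPM [742, 877] with fluconazole. Its lowest class was layer 4/5 intratelencephalic (IT) neurons, at 3.28 CPM from 4 UMIs and 3.58 CPM from 7 UMIs. Astrocytes (363 and 360.4 CPM) and fibroblasts (355 and 425 CPM) were the next highest, and of the cortical neuron subclasses Vip/Lamp5 interneurons held the most, 11.3 and 15.4 CPM. In precursors the gene was uneven between barcodes: with each barcode thinned to 1500 UMIs, 27.3% of vehicle and 38.7% of fluconazole precursors had a Tcf7l2 UMI, and 1 barcode held 17.3% of the gene's vehicle UMIs in the class and 24.7% of the fluconazole ones. In glutamatergic neurons the thinned share was 0.791% with vehicle and 0.691% with fluconazole. The median depth before thinning was 2440.0 and 3367 UMIs in precursors.

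Myt1l, a zinc finger factor known to hold down non-neuronal genes in neurons, was a gene of neurons in these libraries. It was highest in spiny neurons: 1248 CPM [1185, 1313] and 1449 CPM [1377, 1524] in the D2 subclass, 1227 and 1466 CPM in the D1 subclass. Glutamatergic neurons stood at 592 and 659 CPM, neuroblasts at 349 and 353 CPM. Oligodendrocytes were lowest, at 9.78 CPM [7.14, 13.1] and 10.1 CPM [7.36, 13.5]. Precursors gave 281 and 182 CPM of Myt1l, but glutamatergic markers stood there at 45.9% and 34.4% of their library level and spiny neuron markers at 76.4% and 83.9%. After subtraction of the free RNA these markers imply, Myt1l in precursors was 257 and 23.3 CPM of the UMIs left. The share taken as free RNA was 61.2% and 59.2% of the UMIs of the class. CPM before and after are thus on different totals, and the pair does not give the part of the Myt1l UMIs removed. After thinning, 83.3% and 87.7% of D2 barcodes had a Myt1l UMI, against 0.871% and 1.11% of oligodendrocytes. The median depth before thinning was 4961 and 6942.5 UMIs in D2 neurons and 7320 and 8909.5 UMIs in oligodendrocytes.

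Bcl11a, a zinc finger partner of the BAF remodelling complex, was highest in neuroblasts at 413 CPM [391, 437] with vehicle and 468 CPM [435, 503] with fluconazole. Layer 6 corticothalamic (CT) neurons followed at 318 and 349 CPM, and oligodendrocytes were lowest at 3.70 and 5.16 CPM. Tcf4, a basic helix-loop-helix E-protein mutated in Pitt-Hopkins syndrome, was also highest in neuroblasts, at 3073 CPM [3012, 3135] and 3352 CPM [3262, 3443]. Vip/Lamp5 interneurons carried almost as much Tcf4, 2788 and 2835 CPM, while D1 spiny neurons were lowest at 168 CPM [129, 214] and 125 CPM [96.3, 159.7]. Foxp1, a forkhead factor, showed the opposite order in those neurons: 2766 CPM [2603, 2937] and 3107 CPM [2956, 3264] in D1 spiny neurons, and 411 and 384 CPM in Vip/Lamp5 interneurons. Its lowest class was astrocytes, at 169.6 and 150.4 CPM.

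Satb1, which binds AT-rich DNA and folds chromatin, had a pair of separate peaks. Blood leukocytes held 384 CPM [349, 422] and 366 CPM [317, 420.5], and Pvalb/Sst interneurons 341 CPM [315, 369] and 338 CPM [312, 366], with intervals that overlap in both libraries. A single barcode held 19.6% of the Satb1 UMIs of fluconazole leukocytes. Within the leukocytes Satb1 stood at 614 and 783 CPM in the cluster led by Ccl5, at 1009 and 457 CPM in the one led by Igkc, and at 34.0 and 15.1 CPM in the one led by S100a8. The neighbouring interneuron class, Vip/Lamp5, had 29.7 and 30.7 CPM. Mural cells were lowest for Satb1, at 13.3 CPM from 19 UMIs and 4.19 CPM from 8 UMIs. Tbr1, a T-box factor of deep-layer glutamatergic neurons, was the scarcest of the sharply patterned genes. Layer 6 CT neurons had 33.0 CPM [24.9, 43.0] and 27.7 CPM [21.5, 35.2], layer 4/5 IT neurons 18.9 and 16.9 CPM, and endothelial cells 1.40 and 1.15 CPM. Border macrophages had 0 and 1 Tbr1 UMIs, so no fold is given against them. Only 3.88% and 5.56% of thinned layer 6 CT barcodes had a Tbr1 UMI, against 0.224% and 0.0844% of microglia.

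Of the chromatin cofactors and enzymes, 5 had a sharp pattern. Asxl3, a partner of the Polycomb histone deubiquitinase, was highest in neuroblasts at 181 CPM [166, 196] and 200.1 CPM [179, 223], followed by layer 5 neurons at 139 and 122 CPM. Microglia were lowest for Asxl3, with 2.04 and 1.88 CPM. Setbp1, which binds the histone chaperone SET, reached 985 CPM [951, 1021] and 946 CPM [899, 995] in neuroblasts and 721 and 786 CPM in fibroblasts. Border macrophages were lowest for Setbp1, at 21.3 and 20.1 CPM. Kdm6b, a demethylase that removes a Polycomb mark, was highest in microglia at 339.5 CPM [330.3, 349] and 371 CPM [361, 381], with layer 2/3 IT neurons at 9.29 and 10.6 CPM. After thinning, 38.3% and 39.0% of microglia had a Kdm6b UMI against 1.48% and 2.03% of layer 2/3 IT neurons. Kdm5b, a demethylase of a promoter mark, was highest in neuroblasts at 204 and 239 CPM and lowest in border macrophages at 29.4 and 21.3 CPM. Rai1, a nucleosome-binding cofactor deleted in Smith-Magenis syndrome, was lowest in oligodendrocytes at 15.0 CPM [11.7, 19.0] and 10.5 CPM [7.74, 14.0], and highest in fibroblasts at 105 CPM [78.0, 138] and 139 CPM [101, 187]. The fibroblast interval for Rai1 overlaps that of D2 spiny neurons, 102 CPM [84.2, 121.5] and 128 CPM [107, 152].

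**Figure D2:**
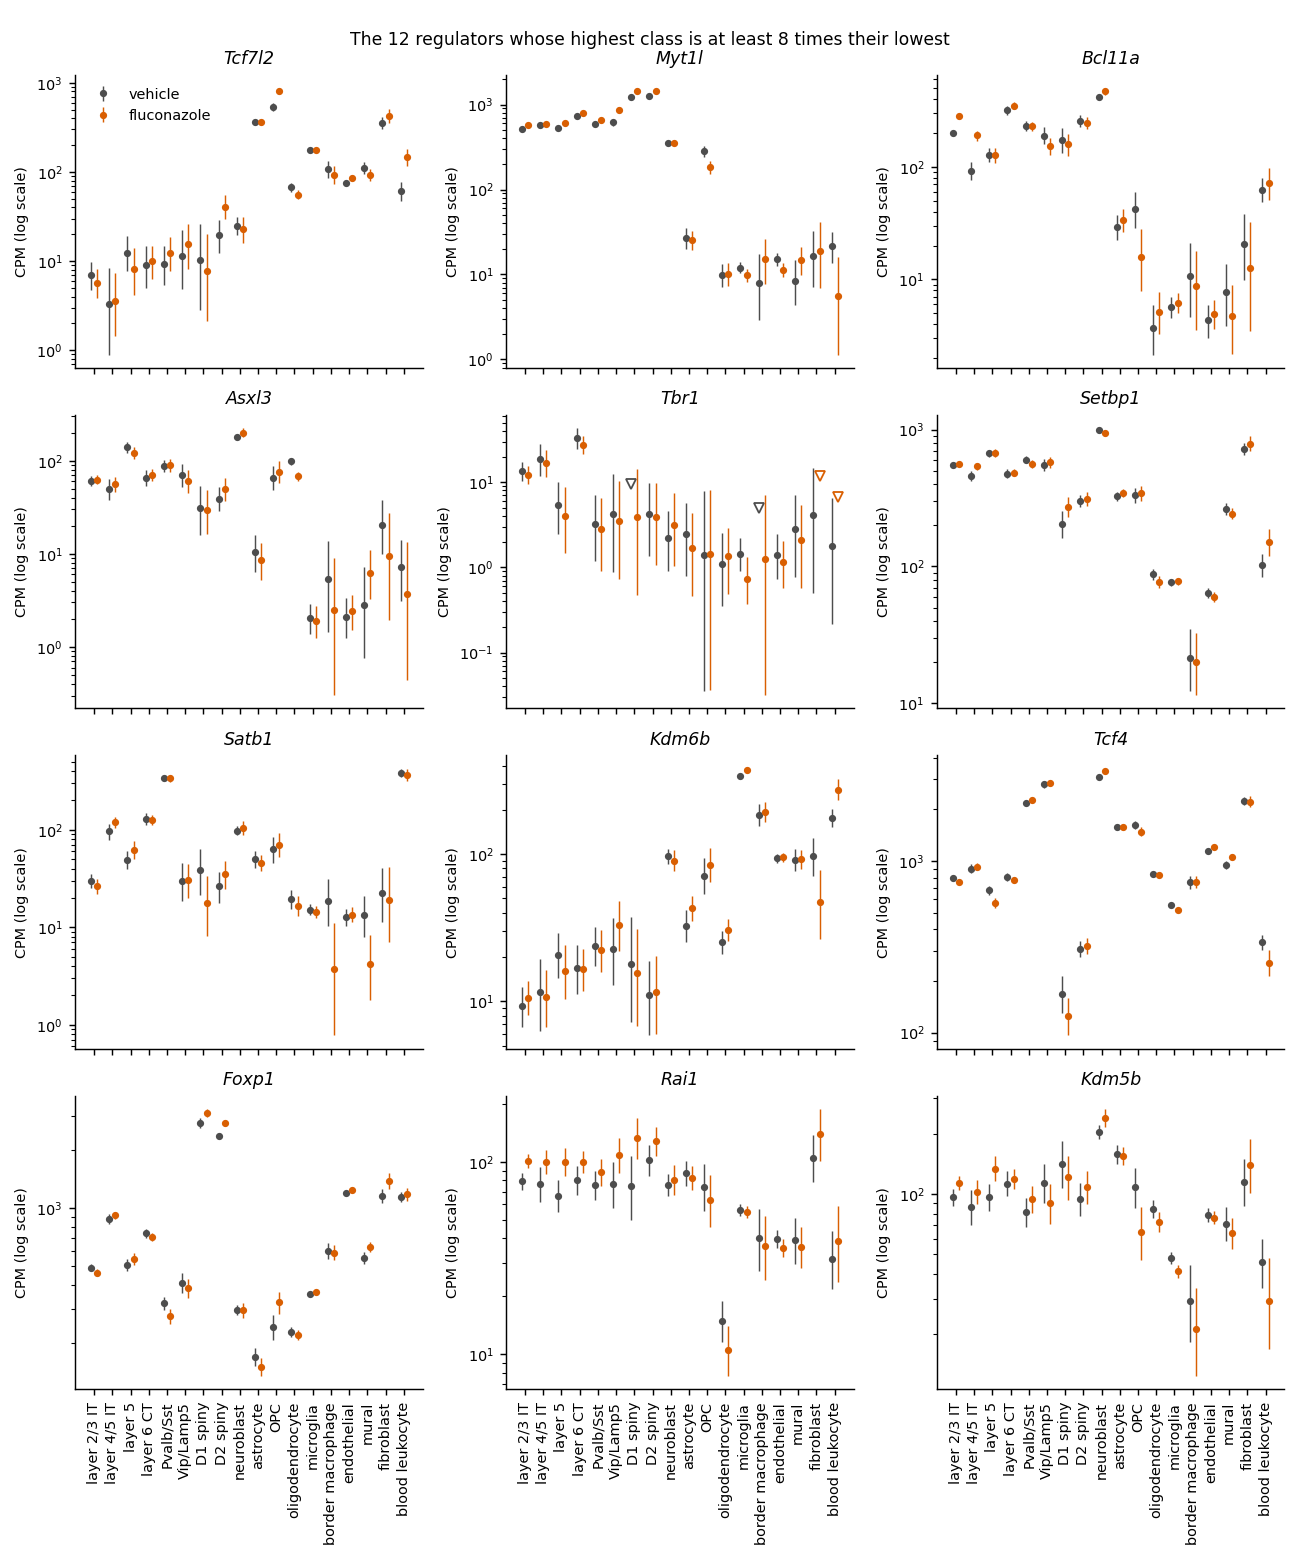
CPM on a log axis of the 12 sharply patterned regulators in 18 classes, vehicle in grey and fluconazole in orange; bars are exact 95% Poisson intervals, and an open triangle marks the upper bound of a class with 0 UMIs. Neuronal and non-neuronal classes separate for Myt1l and Bcl11a, and the D1 and D2 spiny neurons stand high for Foxp1 and low for Tcf4.

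The flattest patterns belonged to 3 enzymes that most cell types carry. Ash1l, a histone methyltransferase of active genes, ran from 182 and 152 CPM in border macrophages to 327 and 390.0 CPM in fibroblasts. Kmt5b, which methylates histone H4, ran from 62.7 and 79.0 CPM in border macrophages to 150.0 and 158 CPM in fibroblasts. Chd8, a chromodomain helicase remodeller and among the genes most often mutated in autism, ran from 41.4 CPM [28.1, 58.7] and 55.2 CPM [40.1, 74.1] in border macrophages to 110.1 CPM [98.8, 122] and 102 CPM [86.8, 119] in neuroblasts. Between these extremes lay the histone methyltransferases Kmt2a, Kmt2c, Nsd1, Ehmt1 and the SET-domain protein Setd5. Also there were the remodellers Chd2 and Arid1b (a BAF subunit), the ubiquitin pathway proteins Trip12 and Wac, and the cofactors Adnp, Pogz, Ankrd11, Tcf20, Tbl1xr1, Med13l and the kinase Dyrk1a. Microglia were highest among the 18 classes for Chd2 (380 CPM over both libraries), Dyrk1a (375 CPM), Med13l and Wac, and border macrophages for Ankrd11 (786 CPM). After thinning Chd2 and Dyrk1a kept that class, while Med13l was highest in D1 spiny neurons, Wac in blood leukocytes and Ankrd11 in oligodendrocyte precursors.

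Summed over the 31 genes, neuroblasts held 10251 CPM with vehicle and 10692 CPM with fluconazole, and fibroblasts 9349 and 10148 CPM. Glutamatergic neurons held 6359 and 6540 CPM of the sum, and oligodendrocytes were lowest at 3771 and 3729 CPM. RNA quality moved with class as well: ribosomal protein genes took 7.70% and 7.52% of UMIs in neuroblasts and 0.418% and 0.327% in glutamatergic neurons. In microglia that share was 5.29% and 5.23%. Its part in the levels was not tested.

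Class against class, a gene was counted where it was at least 2-fold apart the same way in both libraries, with at least 100 UMIs in all. Glutamatergic neurons over astrocytes gave 5 members higher (Tbr1, Bcl11a, Foxp1, Myt1l and Asxl3), beside 18.9% of all genes. In the same contrast 3 were lower (Kmt2c, Kdm6b and Tcf7l2), beside 26.3% of all genes. Over microglia 6 were higher (beside 35.3%) and 5 lower (beside 31.1%). The lower ones were Tcf7l2, Kdm6b, Dyrk1a, Ankrd11 and Chd2, and Dyrk1a, a kinase that acts on transcription and the cell cycle, was 2.78-fold and 2.81-fold higher in microglia. Over oligodendrocytes 8 were higher (beside 34.5%) and only Tcf7l2 was lower (beside 26.3%). Rai1 was 5.39-fold and 9.89-fold higher in glutamatergic neurons than in oligodendrocytes, and its relative Tcf20 3.08-fold and 3.29-fold. Over endothelial cells 8 were higher (beside 32.9%) and 2, Kdm6b and Tcf7l2, lower (beside 32.3%). For the members, the share past the fold was under the share of all genes in each of these contrasts.

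Between neuron types fewer members stood apart. Tbr1 was the only one at least 2-fold higher in glutamatergic than in GABAergic neurons, beside 4.88% of all genes. Its excess was 3.83-fold and 4.66-fold from low counts, and after thinning no member was counted as higher. Tcf4, at 2.72-fold and 3.14-fold, and Satb1, at 3.51-fold and 3.09-fold, were higher in GABAergic neurons, beside 4.69% of all genes. Spiny over glutamatergic neurons gave Foxp1 (3.85-fold and 4.56-fold), Myt1l (2.02-fold and 2.20-fold) and Tcf7l2 (2.41-fold and 4.63-fold) higher, beside 4.48% of all genes. Tbr1, Tcf4 and Satb1 were lower, beside 6.89%.

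Neuroblasts carried more of most regulators per UMI counted than mature glutamatergic neurons did. The median log2 ratio over the 31 members was 0.58 in each library, against 0.09 with vehicle and 0.11 with fluconazole over all genes. At least 2-fold higher in both libraries were 6 of the 31 members, a smaller share than the 27.2% of all genes. These were Kdm6b (log2 2.91 [2.64, 3.17] and 2.76 [2.45, 3.07]), Tcf4 (1.88 and 2.13), Tcf7l2 (1.90 and 1.85), Asxl3 (1.13 and 1.36), Adnp (1.19 and 1.35) and Kdm5b (1.09 and 1.01). Adnp, a homeobox zinc finger protein that recruits a remodeller to its sites, had a narrow range elsewhere. Next in the lower of the libraries came Arid1b (1.00 and 1.13), Wac (0.98 and 0.93), Kmt2c (0.85 and 0.92), Setbp1 (0.94 and 0.81) and Pogz (0.78 and 0.83). At least 2-fold lower were Tbr1 (-2.76 and -2.27) and Foxp1 (-1.02 and -1.07), beside 26.7% of all genes. With doublets kept 1 was lower and after thinning 0 were. Against GABAergic neurons, 4 of 30 members were higher (Adnp, Asxl3, Kdm6b and Kdm5b, beside 28.0% of all genes) and Satb1 was lower (beside 21.9%). Without the cluster led by Top2a these counts were 7 and 0. In the comparison with glutamatergic neurons, 6 members were still higher without that cluster, with Arid1b in place of Tcf7l2, beside 23.7% of all genes. Asxl3 and Kdm5b were higher outside the dividing cluster: Asxl3 had 269.9 and 280.2 CPM in the cluster led by Igfbpl1 and 54.8 and 57.0 CPM in that led by Top2a, and Kdm5b 293 and 309.95 CPM against 79.1 and 116 CPM. Setbp1 was the other way round, at 841 and 857 CPM against 1212 and 1119 CPM. The neuroblast class also held 6267 and 6682 CPM of GABAergic neuron markers over the 6 genes of that list. It held 84.6 and 65.2 CPM of glutamatergic neuron markers, with all 8 of that list detected. The part of cell lineage and of the ribosomal share in these ratios was not tested.

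**Figure D3:**
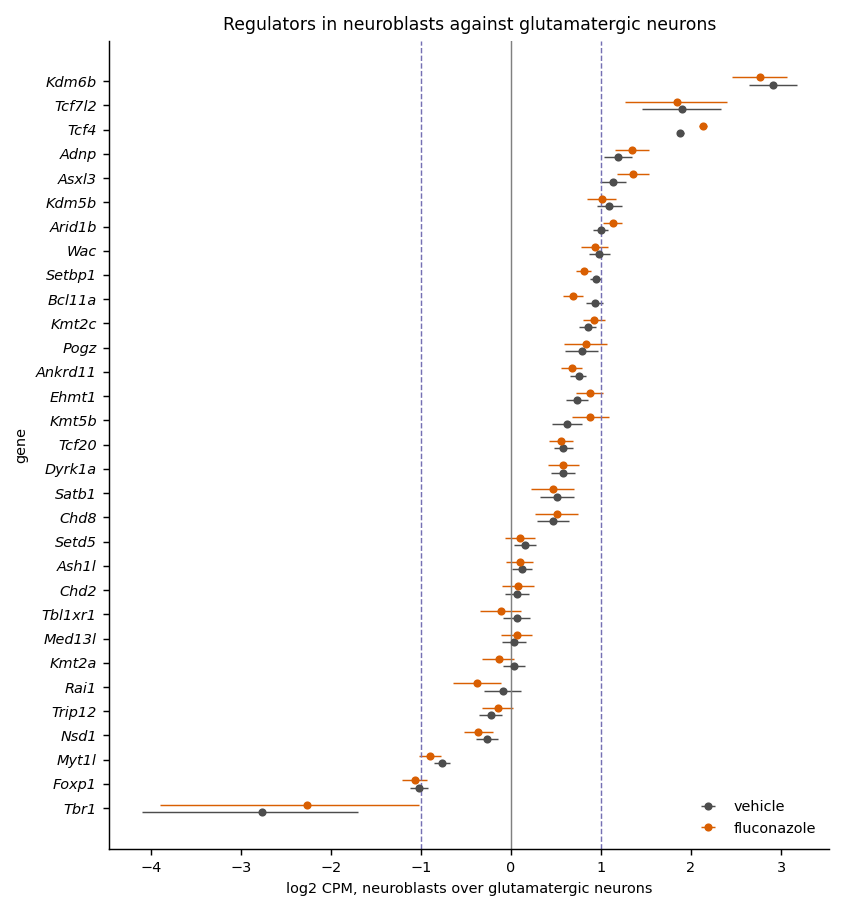
Log2 ratio of CPM in neuroblasts over glutamatergic neurons for the 31 regulators, vehicle in grey and fluconazole in orange, with exact 95% intervals; dashed lines mark 2-fold. Kdm6b has the highest ratio and Tbr1 the lowest in both libraries, and most genes lie right of 0.

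The partner genes of these regulators, 101 genes in 7 lists that hold other subunits of the same complexes, related enzymes and paralogs, were also more often higher than lower in neuroblasts, where 27.2% of all genes were higher and 26.7% lower. At least 2-fold higher than in glutamatergic neurons in both libraries were 14 of 25 BAF complex genes and 1, Smarca2, was lower. Of the 15 measured genes of the KMT2 complexes 6 were higher and 0 lower. The Polycomb deubiquitinase list had 1 of 5 higher and 1 lower. The Mediator and corepressor list and the measured paralogs each had 5 of 11 higher and 1 lower. Of 7 CHD remodellers Chd3, Chd4 and Chd7 were higher and Chd5 lower. Chd7, a remodeller of neural progenitors, stood at 424 and 434 CPM in neuroblasts against 16.0 and 13.5 CPM in glutamatergic neurons. Chd5, a neuronal relative, stood at 7.34 CPM and 1.90 CPM from 3 UMIs against 115 and 111 CPM. The Polycomb methyltransferase Ezh2 had 275 and 265 CPM in neuroblasts and 17.9 and 16.1 CPM in glutamatergic neurons, and 9 of the 26 genes in the list of histone methylation enzymes were higher, a share near that of all genes. Without the cluster led by Top2a, 13 of 25 BAF genes, 6 of 15 KMT2 complex genes, 3 of 7 CHD remodellers and 7 of 26 histone methylation enzymes were higher, beside 23.7% of all genes. Ezh2 stood at 182 and 202 CPM in the cluster led by Igfbpl1 and at 413 and 385 CPM in that led by Top2a.

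Fluconazole and vehicle were compared within each class. A member was counted where fluconazole was at least 25% higher or at least 20% lower (the same ratio turned round) and the 2 libraries held 100 or more of its UMIs. In glutamatergic neurons (1786 vehicle and 1458 fluconazole barcodes) 2 of the 31 members were at least 25% higher, Bcl11a and Rai1, beside 6.26% of all genes. None of the 31 was as much lower, beside 11.5% of all genes. The median log2 ratio of the members was 0.02, against -0.03 over all 13288 genes measured, and 21 of the 31 lay above 0, beside 44.0% of all genes. The median depth of these neurons was 7493 UMIs with vehicle and 10655.5 UMIs with fluconazole.

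Bcl11a (chr11:24078056-24174123, + strand, mm10) stood at 217 CPM with vehicle and 289.8 CPM with fluconazole in glutamatergic neurons, a log2 ratio of 0.42 [0.36, 0.48]. After thinning, 26.3% of vehicle and 33.0% of fluconazole barcodes had a Bcl11a UMI, against 1.05% and 0.664% of oligodendrocytes. The ratio was uneven over the layers. In layer 4/5 IT neurons Bcl11a went from 92.7 CPM (113 UMIs) to 190.0 CPM (372 UMIs), log2 1.04 [0.73, 1.35] (1.47 after thinning), the largest ratio of a measured member in the glutamatergic subclasses. In layer 2/3 IT neurons it went from 199 to 282 CPM, log2 0.50 [0.38, 0.62]. Layer 6 CT neurons differed by 0.13 [-0.02, 0.29] and layer 5 neurons by -0.01 [-0.30, 0.28]. Pvalb/Sst interneurons differed by -0.01, Vip/Lamp5 interneurons by -0.32 [-0.68, 0.04] and spiny neurons by -0.11, so no class of inhibitory neurons had a higher Bcl11a level with fluconazole. The markers that named the layer 4/5 subclass summed to 1551 CPM with vehicle and 1663 CPM with fluconazole in it, those of layer 6 CT to 626 and 720 CPM and those of layer 2/3 to 662 and 624 CPM. The part of the cell mix in the Bcl11a ratio was not tested. When the subclasses were given equal weight, the glutamatergic ratio of Bcl11a was 0.36.

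Rai1 (chr11:60105013-60199197, + strand, mm10) stood at 80.9 CPM with vehicle and 104 CPM with fluconazole in glutamatergic neurons, log2 0.36 [0.26, 0.47]. Unlike Bcl11a it had a positive ratio in every neuron class measured: 0.35 [0.16, 0.55] in layer 2/3 IT, 0.39 [0.03, 0.76] in layer 4/5 IT and 0.58 [0.22, 0.95] in layer 5 neurons. It was 0.31 in layer 6 CT neurons, 0.22 [-0.12, 0.56] in Pvalb/Sst and 0.51 [0.01, 1.02] in Vip/Lamp5 interneurons, and 0.49 [0.18, 0.80] in spiny neurons. Outside neurons the ratio of Rai1 was 0.08 [-0.24, 0.40] in neuroblasts, -0.08 in astrocytes, -0.03 [-0.17, 0.11] in microglia and -0.16 in endothelial cells. Oligodendrocytes had 69 and 47 Rai1 UMIs, a ratio of -0.51 [-1.08, 0.05] that changed sign after thinning, to 0.21. Whether the ratio differs between classes was not tested.

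**Figure D4:**
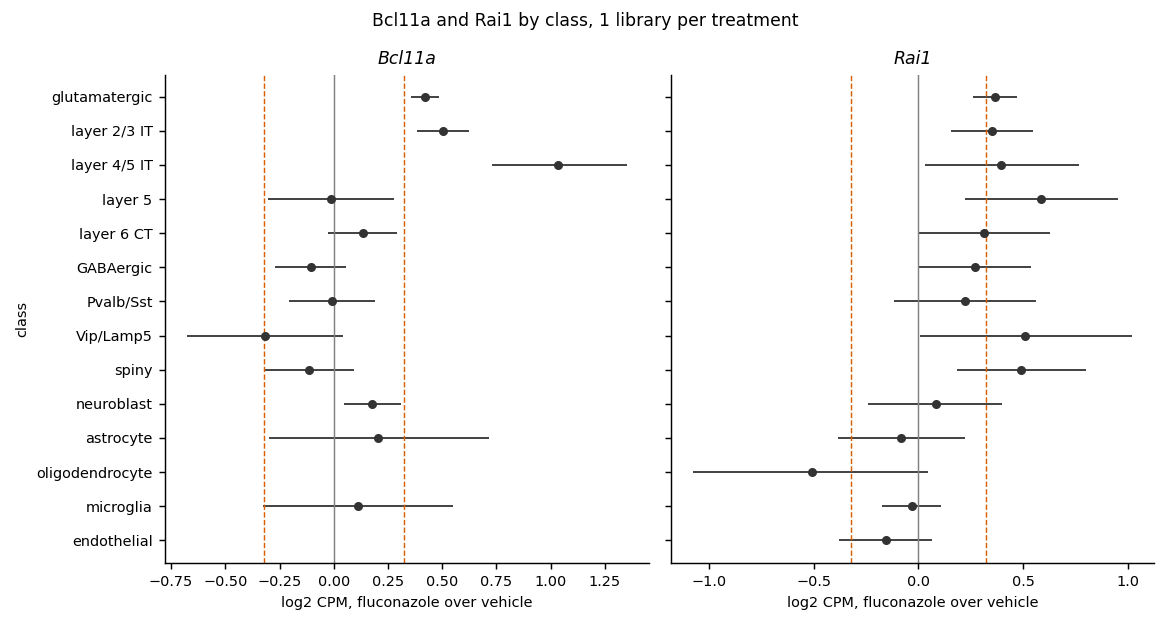
Log2 ratio of CPM, fluconazole over vehicle, of Bcl11a and Rai1 in classes with at least 100 UMIs of the gene, with exact 95% intervals; dashed lines mark 25% higher and 20% lower. Bcl11a stands right of the line in layer 2/3 and layer 4/5 IT neurons, and Rai1 lies right of 0 in every neuron class.

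The other 29 members did not pass the fold in glutamatergic neurons. Kdm5b was just inside the fold, from 95.8 to 119 CPM with a log2 ratio of 0.31 [0.22, 0.41]. Myt1l followed at 0.15, Satb1 at 0.14 and Tcf20 at 0.14. The lowest ratios were those of Chd8, from 79.7 to 71.7 CPM and log2 -0.15 [-0.27, -0.04], Tbl1xr1, a corepressor subunit, at -0.13, Tcf4 at -0.13 [-0.16, -0.09] and Trip12, a ubiquitin ligase, at -0.11. Nsd1, Kmt2a, Kmt2c, Ash1l, Setd5, Kmt5b and Ehmt1, the histone methyltransferase group, lay between -0.07 and 0.07. Tbr1, at 15.2 CPM in both libraries, differed by 0.00 [-0.25, 0.27].

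**Figure D5:**
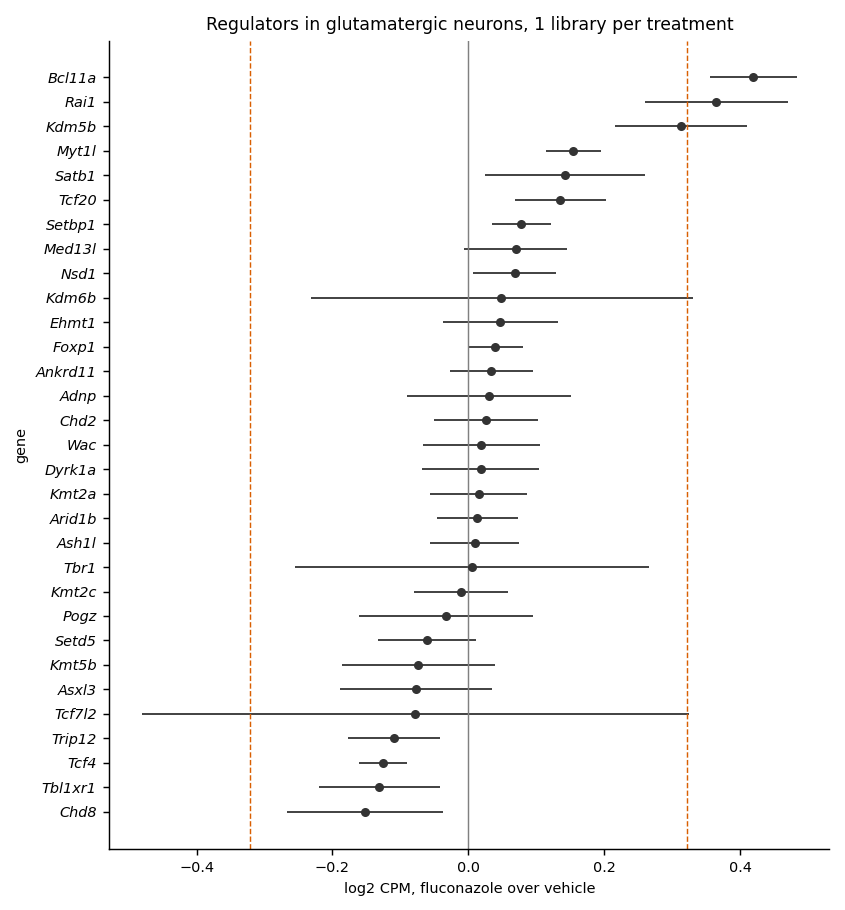
Log2 ratio of CPM, fluconazole over vehicle, in glutamatergic neurons for the 31 regulators, with exact 95% intervals; dashed lines mark 25% higher and 20% lower. Bcl11a and Rai1 lie right of the upper line and no gene lies left of the lower one.

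Single neuron subclasses had between 0 and 5 members past the same fold, and with both directions summed a larger share of all genes passed it in each. Layer 2/3 IT neurons had 2 higher (Bcl11a and Rai1, beside 8.80% of all genes) and none lower (beside 12.1%). Layer 4/5 IT neurons had these 2 higher (beside 11.3%) and Chd8, at -0.46 [-0.84, -0.07], and Tbl1xr1 lower (beside 11.5%). Layer 5 neurons had Rai1, Kdm5b and Satb1 higher (beside 11.6%) and Pogz, a transposase-derived heterochromatin protein, lower at -0.42 [-0.86, 0.02] (beside 11.7%). Layer 6 CT neurons had Chd2 alone higher, at 0.32 [0.09, 0.56] (beside 10.6%), and none lower (beside 9.84%). In Vip/Lamp5 interneurons Rai1, Myt1l, Chd2 and Ankrd11 were higher (beside 10.5%) and Kdm5b was lower at -0.33 [-0.81, 0.14] (beside 12.4%). D1 spiny neurons, with 66 and 59 barcodes, had Wac furthest up at 0.97 [0.40, 1.57] (1.66 after thinning) and Tcf4 furthest down at -0.42 [-0.94, 0.10] (0.16 after thinning), among 2 higher (beside 16.8%) and 2 lower (beside 13.5%). D2 spiny neurons had Dyrk1a at 0.45 [0.11, 0.80] furthest up among 3 higher (beside 12.2%), and none lower (beside 13.1%). For GABAergic neurons as a whole none was higher (beside 8.04%) or lower (beside 9.25%), likewise for Pvalb/Sst interneurons (beside 9.62% and 9.55%).

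Outside the neurons, the oligodendrocyte lineage had members apart in both directions. In oligodendrocyte precursors Tcf7l2 was highest, from 536 to 807 CPM and log2 0.59 [0.40, 0.78], with Foxp1 and Pogz also higher (beside 14.8% of all genes). Without the single barcode richest in Tcf7l2 in each library that ratio was 0.50, and in thinned barcodes it was 0.86. The oligodendrocyte markers in that class summed to 2877 CPM with vehicle and 3688 CPM with fluconazole, with all 7 detected in both; their part in the ratio, and that of the free RNA given above for precursors, was not tested. Foxp1 in precursors stood at 241 and 325 CPM, but at 0.0 CPM in both libraries after subtraction of free RNA, which sets values under 0 to 0. The share subtracted, 61.2% and 59.2%, is the midpoint of the glutamatergic and spiny neuron lists. Microglial markers stood lower, at 29.2% and 25.8%, astrocyte markers higher, at 77.7% and 63.4%, and GABAergic markers at 275% and 327%. Whether precursors lack Foxp1 was not tested. Pogz stood at 84.2 and 113 CPM before that subtraction and at 96.9 and 154 CPM of the UMIs left after it. Kdm5b, at -0.74 [-1.30, -0.19] from 77 and 45 UMIs (-2.28 with a correction for free RNA), and Myt1l, at -0.62 [-0.95, -0.29] from 200 and 127 UMIs, were lower in precursors (beside 13.4%). In oligodendrocytes Asxl3 was lower, from 98.5 to 68.1 CPM and log2 -0.53 [-0.75, -0.32], as was Rai1 (beside 5.95%), and none was higher (beside 7.82%). Asxl3 UMIs were found in 12.4% of thinned vehicle and 8.41% of thinned fluconazole oligodendrocytes, against 0.385% and 0.169% of microglia.

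Among immune and vascular classes, blood leukocytes (251 and 98 barcodes) had 6 members higher and 3 lower, beside 23.7% and 15.7% of all genes. Tcf7l2 was furthest up there, from 60.9 to 147 CPM and log2 1.27 [0.79, 1.76], (2.04 after thinning), and Chd8 furthest down, from 86.0 to 55.2 CPM and log2 -0.64 [-1.28, -0.04]. Marker levels in the class differed between the libraries as well: the leukocyte markers summed to 22429.9 CPM with vehicle and 3426 CPM with fluconazole, and endothelial markers in it to 1437 and 342 CPM. The cluster led by S100a8 made up 39.4% and 41.8% of the class, that led by Ccl5 37.8% and 40.8%, and that led by Igkc 22.7% and 17.3%. The part of these differences in the member ratios was not tested. In the leukocyte cluster led by S100a8, a neutrophil gene, Tcf7l2 went from 91.3 CPM (51 UMIs) to 230.3 CPM (61 UMIs). In the cluster led by Ccl5, a gene of T and natural killer cells, it went from 28.4 to 38.7 CPM with 11 and 8 UMIs. Chd8 went from 147 to 48.3 CPM in the cluster led by Ccl5 and from 51.9 to 52.9 CPM in that led by S100a8. In fibroblasts Kmt2c, a methyltransferase of enhancers, was furthest up of 3 higher at 0.66 [0.34, 0.99] (beside 19.7%), with none lower (beside 20.3%). In mural cells Chd2, a remodeller mutated in childhood epilepsy, was furthest up of 3 at 0.49 [0.20, 0.78] (beside 10.2%), with none lower (beside 8.69%). Border macrophages had Dyrk1a at 0.37 [0.05, 0.70] and Kmt5b higher (beside 11.9%) and none lower (beside 11.2%). Endothelial cells had Myt1l lower, from 15.2 to 11.3 CPM and log2 -0.42 [-0.81, -0.05] but 0.21 after thinning (beside 7.68%), and none higher (beside 6.49%). Astrocytes had Kdm6b higher at 0.40 [-0.06, 0.87], but -0.44 after thinning and 3.18 with the free RNA correction (beside 6.94%) and none lower (beside 9.83%). Microglia, the class with the most barcodes, had none higher (beside 5.54%) or lower (beside 7.11%). Neuroblasts likewise had none higher (beside 7.54%) or lower (beside 9.85%).

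Spiny neurons as 1 class had Rai1, Wac and Chd2 higher (beside 10.4%) and none lower (beside 13.4%). Over the 13 classes, not counting neuron subclasses, 23 of 348 measured pairs of a member and a class were higher, beside 8.54% of all gene and class pairs, and 8 lower, beside 9.77%. In total, with subclasses, 54 of 563 pairs were apart, beside 19.4% of all pairs, and for 40 of these the interval left out 0. The share of all pairs with such an interval was not counted. Barcodes of a neuron subclass also count in their parent class here, so these pairs are not separate from each other.

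Of the partner genes in glutamatergic neurons, 3 of 98 measured were at least 25% higher with fluconazole and 2 at least 20% lower, beside 6.26% and 11.5% of all genes, and their median log2 ratio was 0.00. Dpf1, a neuron-specific BAF subunit, had the highest ratio, from 16.1 to 29.0 CPM and log2 0.85 [0.62, 1.07]. Bcl11b, the paralog of Bcl11a, came next, from 64.5 to 98.2 CPM and log2 0.61 [0.49, 0.72], and Tcf7l1 was the other gene past the fold. The lowest were Lef1, a Wnt pathway factor related to Tcf7l2, at -0.65 [-0.96, -0.35], and the heterochromatin methyltransferase Suv39h1, at -0.55 [-0.98, -0.12]. No gene of the KMT2, CHD, Polycomb deubiquitinase or Mediator and corepressor lists passed the fold in either direction.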

How the data were processed

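Per the submitters' processing notes the reads were processed with Cell Ranger 9.0.0, Seurat 4.0.0 and R 4.0.3 on mm10, while the matrix headers name Cell Ranger 8.0.1. The deposited matrices hold UMI counts per gene and barcode as whole numbers, with 14924 and 12637 barcodes. Here doublets were called with Scrublet on all deposited barcodes (expected rate 8%), leaving out 617 and 517, and the rest were clustered with scanpy 1.11.5 (2000 variable genes, 30 components, Leiden). Classes were named from marker lists. Counts were summed per class and library and divided by the total (CPM). Differences between libraries are log2 ratios of CPM with exact conditional binomial intervals. The calculation was run on simulated Poisson counts, which lack the unevenness between barcodes seen here. That run cannot show how well the intervals cover in these data. Full values are given for members with at least an 8-fold range over classes and the 3 flattest, for members at least 25% higher or 20% lower in glutamatergic neurons, for the furthest in each direction in other classes, and for the 2 highest and 2 lowest partner genes. Those of Chd7, Chd5 and Ezh2 were chosen after their values were seen. The members and lists were chosen with earlier results of these data known. Promoter sequences are RefSeq's and gene positions GENCODE's.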

Additional observations from a re-analysis of the deposited data

Results flagged for a closer look

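For 2 regulators the library difference went opposite ways in different classes, each at least 25% higher or 20% lower and with an interval that leaves out 0. Kdm5b was higher with fluconazole in layer 5 neurons, at log2 0.48, and lower in oligodendrocyte precursors, at -0.74. Myt1l was higher in Vip/Lamp5 interneurons, at 0.49, and lower in endothelial cells, at -0.42, and in oligodendrocyte precursors, at -0.62. With 1 library per treatment the difference between classes was not tested. Myt1l stood at 15.2 and 11.3 CPM in endothelial cells and its ratio there was 0.21 after thinning. In precursors Myt1l stood at 281 and 182 CPM, and at 257 and 23.3 CPM of the UMIs left once free RNA was subtracted.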

How the results depend on the processing

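No paired analysis was possible because each treatment has 1 library. The 2 higher and 0 lower members in glutamatergic neurons became 3 and 0 with median-of-ratios factors, with thinning to 1500 UMIs and with a correction for free RNA. The members' median stayed between 0.00 and 0.05. Over the 13 classes the count of lower pairs, 8, was 14 after thinning, 17 with at least 20 UMIs and 24 with no minimum, and 18 to 34 pairs were higher under every alternative. In the class contrasts, glutamatergic neurons over oligodendrocytes had 2 members lower with doublets kept and 2 with a correction for free RNA instead of 1. Glutamatergic over GABAergic neurons had 0 higher after thinning instead of 1. Neuroblasts over glutamatergic neurons had 1 lower with doublets kept and 0 after thinning instead of 2. Neuroblasts over GABAergic neurons had 7 higher and 0 lower without the cluster led by Top2a instead of 4 and 1. Thinning reversed 4 single ratios: Tcf4 in D1 spiny neurons (0.16), Kdm6b in astrocytes (-0.44), Myt1l in endothelial cells (0.21) and Rai1 in oligodendrocytes (0.21). Of 195 recomputed single ratios 181 stayed inside the counting interval of the reported value, 10 moved out of it in the same direction and these 4 reversed; the free RNA correction and another clustering gave no value for a few. The cause was not tested. Allowing the members among the variable genes, giving the glutamatergic subclasses equal weight and leaving out the top barcode were added after seeing the data for single genes, as were, for levels and class contrasts, leaving out that cluster, the fibroblasts or the precursors and correcting for free RNA. In the first 3 of these Bcl11a and Rai1 stayed at least 25% higher in glutamatergic neurons. Depth limits Tbr1 and the lowest classes of Tcf7l2 and Asxl3, which rest on few UMIs.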
